A study of Homo sapiens with 12 samples.

Results

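The nuclear genes for the subunits of respiratory chain complexes II, III and IV and of ATP synthase (complex V) were followed in PC3 and DU145 cells, 2 human prostate cancer lines, after exposure to pentamidine, an aromatic diamidine used against protozoan infections. Members were taken by gene name: the SDHA to SDHD genes, CYC1, the UQCR genes, the COX4 to COX8 genes, the ATP5 genes and NDUFA4. Of 82 matching names, 35 were pseudogene names and were dropped, and 42 of the 47 that remained had 10 or more counts in at least 3 libraries. These 42 of 32077 genes comprised 4 of complex II, 10 of complex III, 12 of complex IV and 16 of complex V. The 5 genes below that floor were COX6B2, COX7A1, COX7B2, COX8C and ATP5L2, all isoforms or copies of other members, and the highest count of any of them in a library was 11. COX4I2 and COX6A2 were not analysed here, nor were the complex V genes ATP5MD, ATP5MPL and ATP5IF1, which the names did not match.

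There were 4 groups with 3 libraries each and 12 in all: PC3 with vehicle, PC3 with pentamidine at 2.5 μM, DU145 with vehicle and DU145 with pentamidine at 2.5 μM, each for 48 h. The vehicle was sterile distilled water per the methods, and both lines are labelled as wild type. Nothing in the labels says that replicates came from separate cultures, so p-values measure the spread between these libraries only, which may be technical. RNA was selected with Oligo(dT) beads, and total counts ran from 13514195 to 15131436 per library. The 42 members took 0.554 to 0.664% of them.

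Complex II is the succinate dehydrogenase of the citric acid cycle and passes electrons to ubiquinone, complex III passes them on to cytochrome c, complex IV to oxygen, and complex V uses the resulting proton gradient to make ATP. Complex II is encoded wholly in the nucleus. The other complexes join nuclear subunits to mitochondria-encoded ones, which are MT-CYB in complex III, MT-CO1, MT-CO2 and MT-CO3 in complex IV, and MT-ATP6 and MT-ATP8 in complex V. Symbols are those of the deposited table, where the ATP5 genes carry older names. Their current names are ATP5F1A, ATP5F1B, ATP5F1C, ATP5F1D and ATP5F1E for ATP5A1, ATP5B, ATP5C1, ATP5D and ATP5E, then ATP5PB, ATP5PD, ATP5PF and ATP5PO for ATP5F1, ATP5H, ATP5J and ATP5O, then ATP5MC1, ATP5MC2 and ATP5MC3 for ATP5G1, ATP5G2 and ATP5G3, and ATP5ME, ATP5MF and ATP5MG for ATP5I, ATP5J2 and ATP5L. ATP5S, now DMAC2L, is an assembly factor and not a subunit, but the counts, medians and sums of complex V below include it.

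Before the members were compared, the lines and libraries were checked. Among 4 epithelial markers, KRT8 (238 to 307 counts in PC3, 25835 to 38812 in DU145) and KRT18 (2125 to 13423 over all libraries) were present, whereas EPCAM had at most 2 counts and CDH1 at most 10 in any library of either line. The methods state that the lines were authenticated by short tandem repeat profiling. The near absence of EPCAM and CDH1 goes against an epithelial label in part, so PC3 and DU145 below mean the libraries labelled so. KLK3, a secreted luminal protein, had at most 2 counts. The markers of other cells were low throughout, with at most 1 count of PTPRC and of ALB, 10 of PECAM1, 2 of COL1A2 and 40 of COL1A1. Replicate 1 of PC3 with vehicle stood apart from its group. Of the 21 members whose main transcript is shorter than 1000 bases, 20 were lower in it than in the other replicates, with a median log2 difference of -0.39, against -0.14 for the 21 longer members. Replicate 3 of the same group deviated the other way, with a median of 0.28 for the short members and only 1 of 21 lower. Among the other 10 libraries this median lay between -0.15 and 0.17. The PC3 comparison is therefore given with and without these 2 libraries. In some treated libraries nearly all short members also moved together, by less. All 21 were lower in replicate 3 of DU145 with pentamidine, and 20 in replicate 3 of PC3 with pentamidine. Only 1 was lower in replicate 1 of DU145 with pentamidine. This touches the DU145 comparison as well.

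**Figure D1:**
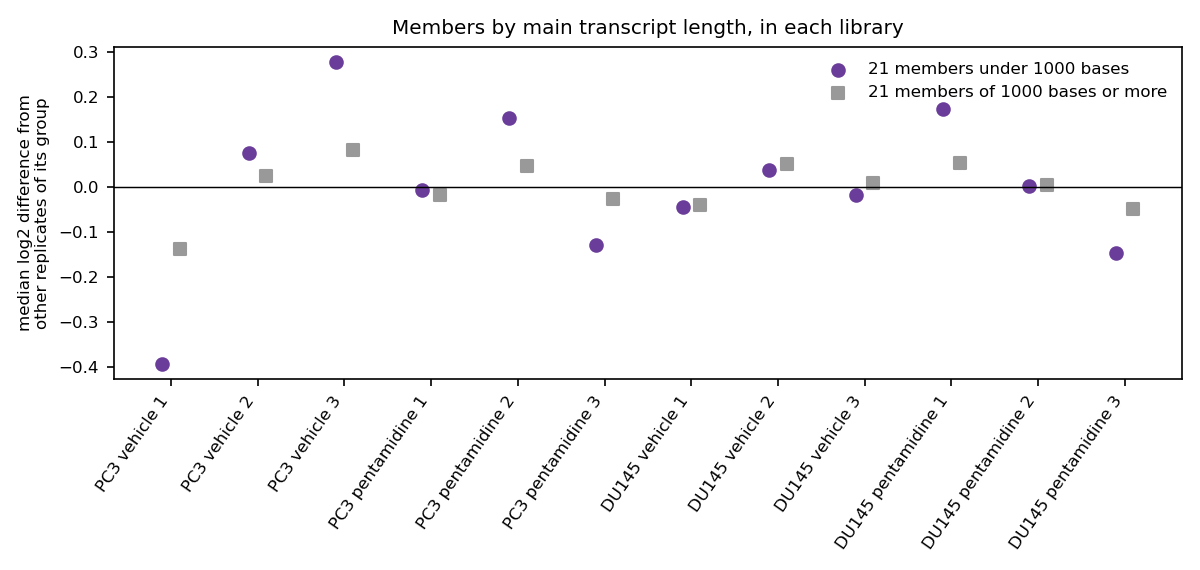
Median log2 difference of the members from the other replicates of their group, in each of the 12 libraries, for the 21 members with a main transcript under 1000 bases (circles) and the 21 longer ones (squares). Replicate 1 of PC3 with vehicle lies lowest, at -0.39 for the short members, and replicate 3 of that group highest, at 0.28.

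In PC3 cells 10 of the 42 members passed an adjusted p of 0.05 with pentamidine (quasi-likelihood test of edgeR, Benjamini-Hochberg adjusted over all genes tested), which is 23.8% of them, against 43.4% of all 13861 genes tested. SDHA, SDHD, UQCRC2, ATP5A1, ATP5D, ATP5G1 and ATP5G3 fell, and COX7A2L, COX5B and COX4I1 rose, against 21.7% of all genes called lower and 21.7% called higher. In DU145 cells 13 of 42 members passed, 31.0% against 34.0% of 14313 genes. There, COX5A, COX5B, COX7A2L, COX7C, NDUFA4, ATP5D, ATP5G2 and ATP5H rose (17.2% of all genes called higher), and SDHA, UQCR11, COX7B, ATP5F1 and ATP5G3 fell (16.8% called lower). The share of members called lay below that of all genes in PC3 and near it in DU145. With replicate 1 of PC3 with vehicle left out, 18 of 42 members passed in PC3, near the 43.6% of all genes. SDHA and ATP5G3 fell and COX7A2L and COX5B rose in both lines, ATP5D moved in opposite directions, and 24 members passed in neither.

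The changes were small. The widest was 0.68 on the log2 scale in PC3 (COX7A2L) and 0.46 in size among called members in DU145 (SDHA). The median log2 fold change of the 42 members was -0.05 in PC3 and 0.05 in DU145, with 0.0046 and 0.0085 over all genes tested. Of the members, 29 and 34 lay within 0.2 of no change. The share of all genes within 0.2 was not taken. No member passed the study's rule of an adjusted p below 0.05 with an absolute log2 fold change over 1 in either line. Of all genes, 4.75% did in PC3 and 2.03% in DU145, shares at which few of 42 members would pass. In these cultures less RNA of a gene per cell and fewer cells with it cannot be told apart.

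The split between risers and fallers depended on single libraries in both lines. Without replicate 1 of PC3 with vehicle, 18 members passed, 3 higher and 15 lower, against 43.6% of all genes (3103 higher, 3077 lower). Without replicate 3 of that group 16 passed, 10 higher and 6 lower, against 5766 of all 14237 genes tested (2876 higher, 2890 lower). In DU145, leaving out replicate 1 with vehicle gave 4 higher and 4 lower, against 2135 and 2286 among all 14679 genes tested. Leaving out replicate 3 with pentamidine gave 12 higher and 3 lower, against 2143 and 2227 among all 14617. The DU145 risers COX5A, COX5B, COX7C, ATP5D and ATP5H are among the short members, as are the fallers UQCR11 and ATP5G3. COX7A2L, SDHA, SDHD, ATP5A1, ATP5G1 and ATP5G3 passed under all 15 alternatives run in PC3, and SDHA, COX5A, ATP5G2 and ATP5G3 under all 15 in DU145. Of the other members called in PC3, COX5B passed in 13 alternatives, COX4I1 in 12, ATP5D in 10 and UQCRC2 in 7. Of those called in DU145, ATP5F1 passed in 14, COX7A2L in 13, ATP5D and NDUFA4 in 12, COX5B in 11, COX7C in 10, ATP5H in 9, COX7B in 8 and UQCR11 in 7. When libraries were scaled by their totals alone, the DU145 split moved to 14 higher and 2 lower, with 3282 higher and 1645 lower among all genes in place of 2459 and 2401.

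**Figure D2:**
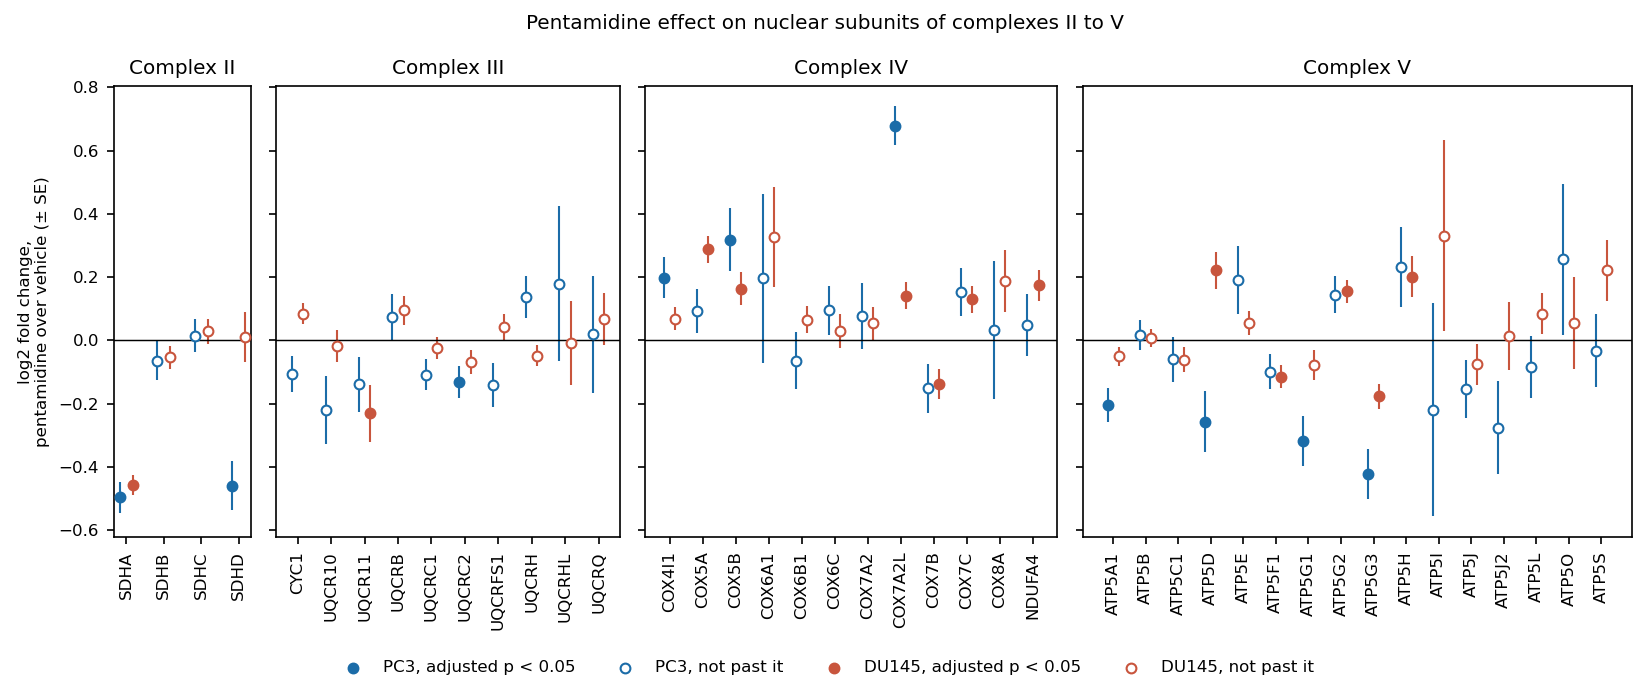
Log2 fold change, pentamidine over vehicle, with its standard error for each of the 42 members in PC3 (blue) and DU145 (red), by complex. Filled points passed an adjusted p of 0.05, 10 in PC3 and 13 in DU145. SDHA lies near -0.5 in both lines, and COX7A2L reaches 0.68 in PC3 and 0.14 in DU145.

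Complex II held the largest falls. SDHA, the flavoprotein that oxidises succinate, lies at chromosome 5, 218241 to 256700 (GRCh38, plus strand, ENSG00000073578). In PC3 its level was 172, 165 and 173 CPM (counts scaled to a common library size, TMM-normalised over the 12 libraries) with vehicle and 121, 118 and 120 with pentamidine. In DU145 it was 746, 713 and 696 with vehicle and 530, 531 and 505 with pentamidine. Every treated library lay below every vehicle library of its line. The log2 fold change was -0.50 ± 0.05 (SE, n = 3 per group, edgeR adjusted p = 3.9e-07) in PC3 and -0.46 ± 0.03 (edgeR adjusted p = 9.2e-18) in DU145, and the difference between them was -0.04 ± 0.06 (edgeR adjusted p = 0.69). Pseudogenes named after SDHA held counts equal to 7.65% of its own. With these added, the fold changes were -0.43 in both lines and remained called.

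SDHD, the small subunit of the membrane anchor that binds ubiquinone and heme, lies at chromosome 11, 112086773 to 112120013 (plus strand, ENSG00000204370). It had 42.1, 48.1 and 41.0 CPM in PC3 with vehicle and 30.8, 31.3 and 33.1 with pentamidine. In DU145 it had 23.1, 26.1 and 27.4 CPM with vehicle and 26.7, 24.9 and 25.4 with pentamidine. The groups were separate in PC3 and overlapped in DU145. The log2 fold change was -0.46 ± 0.08 in PC3 (edgeR adjusted p = 1.4e-04) and 0.01 ± 0.08 in DU145 (edgeR adjusted p = 0.94), and the effects differed by -0.47 ± 0.11 in the fit of all 12 libraries (edgeR adjusted p = 0.0028). SDHD shares 24% of its exon bases with other genes, most of them with a protein-coding gene on the same strand. The other 2 subunits, SDHB, the iron-sulfur protein, and SDHC, the large anchor subunit, had log2 fold changes between -0.07 and 0.03 in both lines and did not pass.

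The 2 members of complex II that fell in PC3 are shown with the 250 bases before their RefSeq start sites (GRCh38.p14, plus strand), at chr5:218070-218319 for SDHA and chr11:112086623-112086872 for SDHD. Capitals mark the palindromic core motif of NRF1, a factor of many respiratory chain genes, with any base allowed at its sixth position, and CCGGAAG, the ETS motif, each on either strand.
SDHA: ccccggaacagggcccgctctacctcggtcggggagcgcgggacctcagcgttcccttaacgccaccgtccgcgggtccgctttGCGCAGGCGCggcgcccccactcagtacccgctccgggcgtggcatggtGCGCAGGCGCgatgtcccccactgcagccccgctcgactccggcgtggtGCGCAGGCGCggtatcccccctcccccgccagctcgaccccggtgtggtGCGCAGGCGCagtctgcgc
SDHD: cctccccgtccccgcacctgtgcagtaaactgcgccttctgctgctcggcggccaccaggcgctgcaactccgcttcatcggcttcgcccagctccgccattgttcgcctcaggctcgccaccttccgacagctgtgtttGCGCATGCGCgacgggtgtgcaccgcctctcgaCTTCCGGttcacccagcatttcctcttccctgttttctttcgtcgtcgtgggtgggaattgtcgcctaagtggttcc
SDHA held the relaxed NRF1 form 4 times and no ETS motif, and SDHD held the exact NRF1 core and an ETS motif in the opposite orientation. RefSeq promoters of 300 bases were matched for 32 of the 42 members. Over both strands the exact NRF1 core was in 2 of them (6.25%, against 1.24% of 35116 promoters), the relaxed form, which includes it and was added after the SDHA sequence was seen, in 9 (28.1% against 5.78%), CCGGAAG in 15 (46.9% against 10.3%) and AAGATGG, the YY1 motif, in 9 (28.1% against 5.84%). A motif match is a description of the sequence, and no binding was measured.

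**Figure D3:**
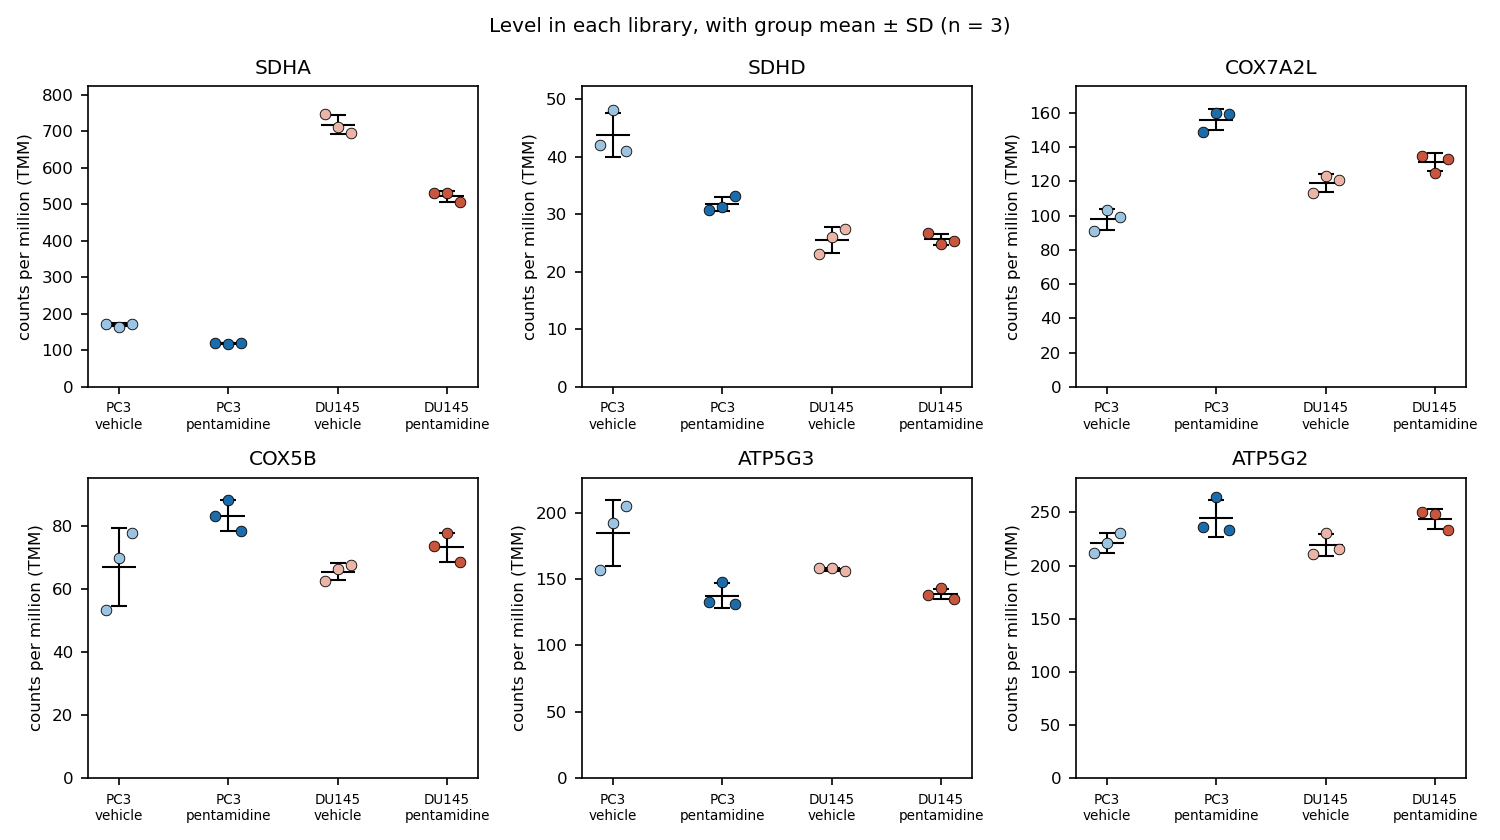
TMM-normalised CPM of SDHA, SDHD, COX7A2L, COX5B, ATP5G3 and ATP5G2 in each library, with the mean and SD of each group (n = 3). SDHA lies between 118 and 173 CPM in PC3 and between 505 and 746 in DU145, with the treated libraries below the vehicle libraries in each line.

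The lines differed far more in SDHA than pentamidine moved it. With vehicle, PC3 had 170 ± 4 CPM (SD, n = 3) and DU145 719 ± 25, a log2 difference of -2.11 ± 0.05 (SE, edgeR adjusted p = 1.1e-15), the only difference of any member past the study's rule (19.2% of all genes tested between the lines passed it). SDHD was higher in PC3, by 0.75 ± 0.09 (edgeR adjusted p = 9.4e-07), SDHC lower (-0.27 ± 0.05) and SDHB higher (0.15 ± 0.06), so that all 4 subunits passed. Over all members 21 of 42 differed between vehicle-treated PC3 and DU145, 8 higher and 13 lower in PC3, against 65.3% of 14394 genes, of which 31.5% were called higher and 33.8% lower. Besides SDHA and SDHD, the widest differences among called members were in COX8A (-0.58 ± 0.22), UQCRC1 (-0.55 ± 0.05), UQCRFS1 (-0.51 ± 0.06) and ATP5D (0.44 ± 0.11). Without replicate 1 of PC3 with vehicle, COX8A was at -0.27 ± 0.11 and ATP5D at 0.27 ± 0.07. The call for COX8A was lost under DESeq2 and without replicate 2 or 3 of DU145 with vehicle. Without replicate 1 of PC3 with vehicle, 31 members passed, 18 higher and 13 lower, against 65.7% of all genes.

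In complex III, which carries electrons through the heme protein CYC1 and the Rieske protein UQCRFS1 on a scaffold of core proteins, 1 of 10 members was called in each line, against 43.4% of all genes in PC3 and 34.0% in DU145. Without replicate 1 of PC3 with vehicle, UQCR10 (-0.36 ± 0.07, edgeR adjusted p = 1.0e-05) and UQCRQ (-0.26 ± 0.09, edgeR adjusted p = 0.011) also passed in PC3, as lower. Without replicate 3 of that group, UQCRH passed as higher. UQCRC2, a core protein, had 216, 230 and 226 CPM with vehicle and 202, 210 and 199 with pentamidine in PC3, a log2 fold change of -0.13 ± 0.05 (edgeR adjusted p = 0.046). This call was lost under DESeq2, with the replicate block, without the low-count filter, and when any 1 of the PC3 libraries other than replicate 1 with vehicle was left out. UQCR11, a small accessory subunit, had 21.4, 20.6 and 18.7 CPM with vehicle and 18.3, 16.7 and 16.5 with pentamidine in DU145 (-0.23 ± 0.09, edgeR adjusted p = 0.043), a call also lost under DESeq2. UQCR11 shares 31.2% of its exon bases with a neighbouring gene. The median over complex III was -0.11 in PC3 and -0.01 in DU145.

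CYC1, singled out after its values were seen, was called in neither line but had effects that differed between them. It had 277, 235 and 269 CPM in PC3 with vehicle, 240, 243 and 239 with pentamidine, 244, 241 and 246 in DU145 with vehicle and 266, 258 and 249 with pentamidine. The highest vehicle value in PC3 was that of replicate 1. The difference of the effects was -0.19 ± 0.07 (edgeR adjusted p = 0.044), and it was -0.14 (edgeR adjusted p = 0.1) without that replicate. It passed in only 5 of 20 alternatives, and was lost under DESeq2, RLE scaling and the replicate block among others.

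The hinge protein gene UQCRH and its retrocopy UQCRHL are nearly identical, and their coding sequences are shown because reads may be divided between them (GENCODE 29 transcripts, capitals mark bases of UQCRHL that differ from UQCRH).
UQCRH: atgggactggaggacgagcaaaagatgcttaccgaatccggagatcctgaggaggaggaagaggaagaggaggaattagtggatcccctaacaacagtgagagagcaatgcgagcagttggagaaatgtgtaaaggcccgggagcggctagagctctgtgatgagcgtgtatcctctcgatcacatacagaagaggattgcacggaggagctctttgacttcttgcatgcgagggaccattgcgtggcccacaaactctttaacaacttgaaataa
UQCRHL: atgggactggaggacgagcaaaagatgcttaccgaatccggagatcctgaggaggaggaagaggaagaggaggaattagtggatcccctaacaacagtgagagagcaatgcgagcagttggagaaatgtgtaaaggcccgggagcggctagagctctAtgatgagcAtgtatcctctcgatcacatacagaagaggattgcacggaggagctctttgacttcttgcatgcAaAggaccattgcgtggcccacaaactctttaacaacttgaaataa
They differed at 4 of 276 bases and shared a stretch of 157 bases without a difference. UQCRHL took 2.25 to 5.66% of the counts of the pair over the 12 libraries. Both extremes were in PC3 with vehicle, in replicates 1 and 3. Neither gene passed in either line, although UQCRH passed in 2 of 15 alternatives in PC3.

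In complex IV the 12 members are accessory subunits around the mitochondria-encoded catalytic core. The median log2 fold change was 0.09 in PC3 and 0.14 in DU145. In PC3, 3 passed, all higher, against 43.4% of all genes called and 21.7% called higher. Without replicate 1 of PC3 with vehicle, COX6B1 (-0.19 ± 0.07), COX7B (-0.20 ± 0.07) and COX8A (-0.27 ± 0.12) also passed there, as lower. Without replicate 3 of that group, COX5A and COX7C also passed, as higher. In DU145 6 passed, 5 of them higher, against 34.0% and 17.2%. COX7A2L, the member of the subunit 7A family that joins complexes III and IV into supercomplexes, lies at chromosome 2, 42333546 to 42425088 (GRCh38, minus strand, ENSG00000115944). It had 90.7, 103 and 99.3 CPM in PC3 with vehicle and 149, 160 and 159 with pentamidine. In DU145 it had 113, 123 and 121 CPM with vehicle and 135, 125 and 133 with pentamidine. The groups did not overlap in either line, and the gap was wide only in PC3. The log2 fold change was 0.68 ± 0.06 in PC3 (edgeR adjusted p = 9.7e-08) and 0.14 ± 0.04 in DU145 (edgeR adjusted p = 0.0066), and the effects differed by 0.54 ± 0.07 (edgeR adjusted p = 3.6e-06). Without replicate 1 of PC3 with vehicle the effect in PC3 was 0.62 ± 0.06.

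COX5B, a subunit that binds zinc beside the core, was singled out after its values were seen because it rose in both lines. It had 53.4, 70.0 and 77.8 CPM in PC3 with vehicle and 83.4, 88.3 and 78.4 with pentamidine, and 62.7, 66.4 and 67.7 in DU145 with vehicle and 73.6, 77.8 and 68.6 with pentamidine. The groups touched without overlapping in both lines. The fold change was 0.32 ± 0.10 (edgeR adjusted p = 0.016) in PC3, or 0.17 ± 0.07 without replicate 1 of PC3 with vehicle (edgeR adjusted p = 0.028), and 0.16 ± 0.05 (edgeR adjusted p = 0.011) in DU145. COX5A had 87.2, 90.6 and 94.7 CPM in DU145 with vehicle and 113, 109 and 109 with pentamidine (0.29 ± 0.04, edgeR adjusted p = 4.2e-07). In PC3 it had 106, 104 and 127 CPM with vehicle and 119, 122 and 117 with pentamidine, which overlapped.

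COX4I1, the ubiquitous form of subunit 4, rose by 0.20 ± 0.07 in PC3 (edgeR adjusted p = 0.021) with overlapping groups, 305, 313 and 367 CPM against 385, 387 and 353, and was at 0.07 ± 0.04 in DU145. COX7B, which is needed for assembly of the complex, was the member of complex IV that fell in DU145 (-0.14 ± 0.05, edgeR adjusted p = 0.019), with 106, 126 and 116 CPM against 111, 106 and 99.8. In PC3 its log2 fold change was -0.15 ± 0.08 and did not pass, although it passed in 2 of 15 alternatives. The remaining 6 members of complex IV other than NDUFA4, which are COX6A1, COX6B1, COX6C, COX7A2, COX7C and COX8A, had log2 fold changes between -0.06 and 0.33, of which only that of COX7C in DU145 passed (0.13 ± 0.04, edgeR adjusted p = 0.012). In PC3, COX6B1 and COX8A passed only without replicate 1 with vehicle, and COX7C only without replicate 3 with vehicle. COX6A1 and COX8A share 30.6 and 34.5% of their exon bases with other genes, and pseudogenes of COX6A1 held counts equal to 43.2% of its own.

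Within subunit 7A, COX7A2L took 54.1, 49.8 and 47.7% of the counts per kilobase of main transcript in PC3 with vehicle and 60.7 ± 2.51% (SD, n = 3) with pentamidine. The difference of 10.1 percentage points had an exact permutation p of 0.1 (two-sided), the smallest that 3 against 3 libraries can give. In DU145 its share was 56.4 ± 0.95% (SD, n = 3) with vehicle and 58.0 ± 1.85% with pentamidine, and the groups overlapped. COX7A1, the form of heart and skeletal muscle, was near the floor in every library, at 1 to 11 counts.

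NDUFA4, once assigned to complex I and now counted as a subunit of complex IV, has the paralogs C15orf48, which can take its place in the complex, and NDUFA4L2, a known hypoxia-responsive gene. Both are outside the 42 members. NDUFA4 had 87.1, 119 and 128 CPM in PC3 with vehicle and 115, 118 and 111 with pentamidine (0.05 ± 0.10, edgeR adjusted p = 0.72). In DU145 it rose by 0.17 ± 0.05 (edgeR adjusted p = 0.0039), with 85.6, 91.7 and 82.5 CPM against 103, 100 and 89.1. The paralogs moved far more than the member.

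C15orf48 had 34, 56 and 50 counts in PC3 with vehicle and 20, 18 and 25 with pentamidine, and 233, 267 and 287 in DU145 with vehicle and 66, 83 and 60 with pentamidine. It fell in both lines without overlap, with log2 fold changes of -1.14 ± 0.27 (edgeR adjusted p = 0.0022) and -1.94 ± 0.13 (edgeR adjusted p = 9.0e-19). NDUFA4L2 had 11, 12 and 16 counts in PC3 with vehicle and 72, 119 and 81 with pentamidine, a rise of 2.80 ± 0.28 on the log2 scale (edgeR adjusted p = 4.8e-07). In DU145 it had 1, 2 and 0 counts with vehicle and 12, 15 and 23 with pentamidine, at least 5.43-fold higher against a floor of 3 counts per library (edgeR adjusted p = 2.9e-06). Both genes were thus called in both lines, in opposite directions from each other.

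As shares of the family's counts per kilobase, NDUFA4 took 62.8, 62.6 and 58.9% in DU145 with vehicle and 87.1, 84.6 and 85.6% with pentamidine, while C15orf48 took 37.1, 37.2 and 41.1% and then 11.6, 13.8 and 11.7%. In PC3, NDUFA4 took 91.1 ± 0.40% with vehicle and 88.1 ± 1.98% with pentamidine, and NDUFA4L2 1.34 ± 0.23% and then 8.66 ± 2.26%. None of these groups overlapped, and each exact permutation p was 0.1, the smallest possible. As shares of plain counts, the difference for C15orf48 in DU145 was -13.0 percentage points in place of -26.1.

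**Figure D4:**
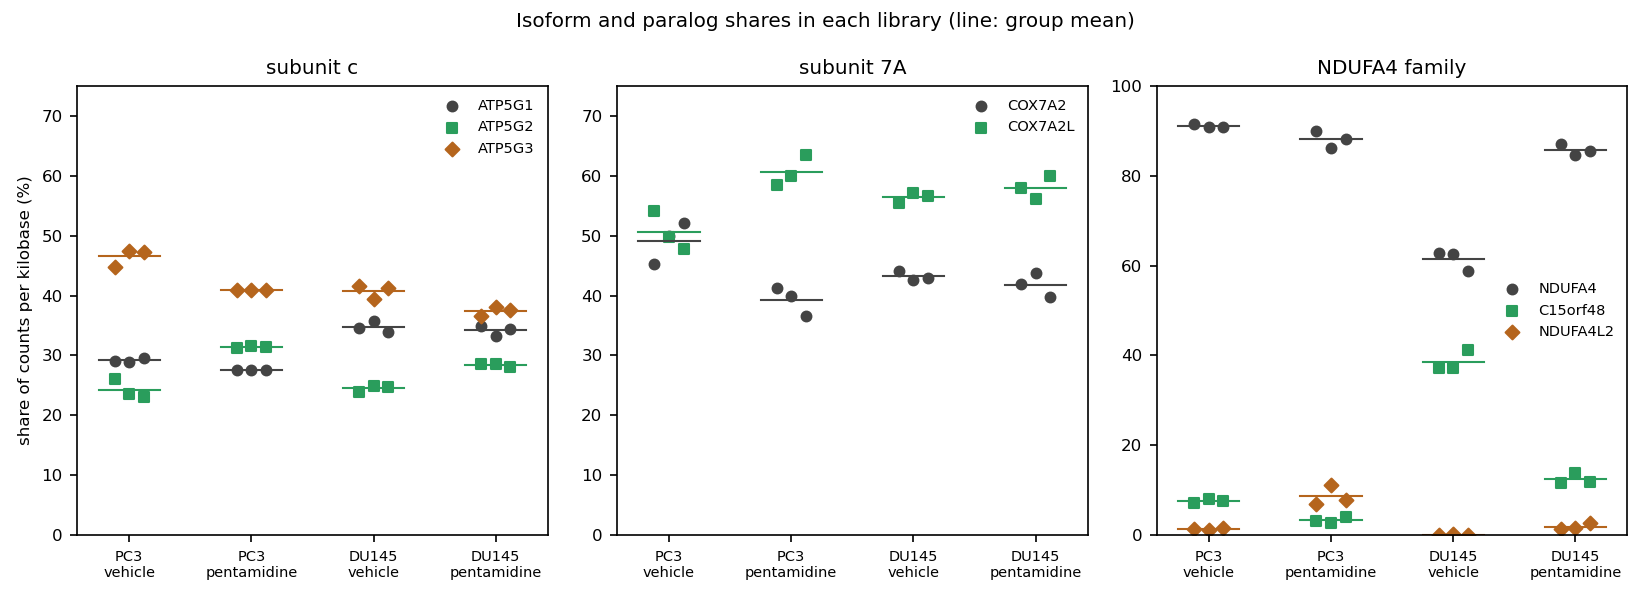
Share of counts per kilobase of main transcript in each library, with group means as lines, for the subunit c genes, subunit 7A genes and NDUFA4 with its paralogs. The mean share of ATP5G2 is 24.3% with vehicle and 31.4% with pentamidine in PC3 and 24.5 and 28.4% in DU145, and that of C15orf48 in DU145 is 38.5 and 12.4%.

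Complex V had 16 members, of which 4 were called in PC3, all lower (43.4% of all genes were called), and 5 in DU145, 3 higher and 2 lower (34.0% of all genes). Without replicate 1 of PC3 with vehicle, ATP5F1, ATP5J, ATP5J2 and ATP5L also passed in PC3 as lower, and ATP5D was lost. Without replicate 3 of that group, ATP5E, ATP5G2, ATP5H and ATP5O passed as higher. The medians of complex V were -0.09 and 0.03. In the F1 head, ATP5B, the catalytic beta subunit, was at 949 to 1020 CPM in PC3 and 1030 to 1070 in DU145, with log2 fold changes of 0.02 ± 0.05 and 0.01 ± 0.03. ATP5A1, the alpha subunit, named after its values were seen, had 483, 518 and 556 CPM in PC3 with vehicle and 449, 454 and 444 with pentamidine (-0.20 ± 0.05, edgeR adjusted p = 0.0055), without overlap. In DU145 it was at 660, 663 and 666 CPM and then 647, 645 and 622 (-0.05 ± 0.03), and the difference between the lines did not pass (-0.15 ± 0.06, edgeR adjusted p = 0.068). It passed without replicate 1 of PC3 with vehicle (-0.20 ± 0.05, edgeR adjusted p = 0.0047) and when libraries were scaled by their totals alone.

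ATP5D, the delta subunit of the central stalk, was the member called in opposite directions. It had 107, 73.5 and 79.9 CPM in PC3 with vehicle and 74.4, 72.2 and 70.9 with pentamidine. In DU145 it had 57.8, 61.4 and 69.1 CPM with vehicle and 82.5, 68.9 and 67.9 with pentamidine. In PC3 replicate 1 with vehicle alone lay far above the rest, and in DU145 the groups overlapped. The log2 fold change was -0.26 ± 0.10 in PC3 (edgeR adjusted p = 0.041) and 0.22 ± 0.06 in DU145 (edgeR adjusted p = 0.0027), and without replicate 1 of PC3 with vehicle the effect in PC3 was -0.08 ± 0.07 and did not pass (edgeR adjusted p = 0.32). The difference of the effects, -0.48 ± 0.13 (edgeR adjusted p = 0.011), was -0.29 ± 0.09 (edgeR adjusted p = 0.016) without it. Under DESeq2 neither the change in PC3 (adjusted p = 0.227), nor that in DU145 (adjusted p = 0.156), nor their difference (adjusted p = 0.0911) passed. The PC3 call was also lost when any treated PC3 library was left out. The DU145 call was lost in 1 fit of all 12 libraries and without replicate 1 with pentamidine, where it was 0.12 (edgeR adjusted p = 0.11). The difference was lost without that library as well.

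Subunit c forms the rotating ring in the membrane and is made from 3 genes, ATP5G1 (chromosome 17, 48892765 to 48895871, plus strand), ATP5G2 (chromosome 12, 53632726 to 53677408, minus strand) and ATP5G3 (chromosome 2, 175176258 to 175184607, minus strand), which differ in their import signals. The last 228 coding bases of each are shown, stop codon included, because they encode the same 75 residues and yet can be told apart by their reads (GENCODE 29, capitals mark bases that differ from ATP5G1).
ATP5G1: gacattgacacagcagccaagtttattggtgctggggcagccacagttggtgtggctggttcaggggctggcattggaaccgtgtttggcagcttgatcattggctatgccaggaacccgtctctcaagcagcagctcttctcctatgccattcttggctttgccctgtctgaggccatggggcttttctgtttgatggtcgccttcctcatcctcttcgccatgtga
ATP5G2: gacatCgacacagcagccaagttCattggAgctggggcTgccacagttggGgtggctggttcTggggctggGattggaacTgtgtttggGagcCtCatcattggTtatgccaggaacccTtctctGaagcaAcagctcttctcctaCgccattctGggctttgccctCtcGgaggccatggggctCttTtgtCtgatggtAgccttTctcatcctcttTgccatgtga
ATP5G3: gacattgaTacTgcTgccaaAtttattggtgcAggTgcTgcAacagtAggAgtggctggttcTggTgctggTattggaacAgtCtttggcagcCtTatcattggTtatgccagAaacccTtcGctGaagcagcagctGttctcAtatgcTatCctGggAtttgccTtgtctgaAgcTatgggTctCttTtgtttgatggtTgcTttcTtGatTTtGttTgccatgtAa
ATP5G2 differed from ATP5G1 at 25 bases (89% identity) and ATP5G3 from ATP5G1 at 43 (81.1%). The longest stretch without a difference was 17 bases between ATP5G1 and ATP5G2 and 11 between ATP5G1 and ATP5G3.

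ATP5G3 had 157, 192 and 205 CPM in PC3 with vehicle and 133, 148 and 131 with pentamidine, and 158, 158 and 156 in DU145 with vehicle and 138, 143 and 135 with pentamidine. It fell in both lines, with log2 fold changes of -0.42 ± 0.08 in PC3 (edgeR adjusted p = 4.2e-04) and -0.18 ± 0.04 in DU145 (edgeR adjusted p = 1.8e-04). ATP5G2 had 212, 221 and 231 CPM and then 236, 264 and 233 in PC3, and 211, 231 and 216 and then 250, 248 and 233 in DU145. It rose by 0.15 ± 0.04 in DU145 (edgeR adjusted p = 6.8e-04) and was at 0.14 ± 0.06 in PC3, which did not pass (edgeR adjusted p = 0.056). ATP5G1 fell in PC3 (-0.32 ± 0.08, edgeR adjusted p = 0.0037), with 72.3, 83.1 and 90.9 CPM against 63.7, 70.6 and 62.7, and was at -0.08 ± 0.05 in DU145. None of the 3 effects differed between the lines at an adjusted p of 0.05, with -0.24 for both ATP5G1 and ATP5G3 (edgeR adjusted p = 0.076 and 0.059). Without replicate 1 of PC3 with vehicle both passed, at -0.32 ± 0.08 for ATP5G1 (edgeR adjusted p = 0.0025) and -0.34 ± 0.07 for ATP5G3 (edgeR adjusted p = 7.1e-05). Both also passed without replicate 2 of PC3 with pentamidine and when libraries were scaled by their totals alone.

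The shares of subunit c transcripts differed in the same direction in both lines. Per kilobase, ATP5G2 made up 26.1, 23.6 and 23.1% in PC3 with vehicle and 31.3, 31.6 and 31.4% with pentamidine, and 23.9, 24.9 and 24.8% in DU145 with vehicle and 28.5, 28.6 and 28.0% with pentamidine. ATP5G3 moved from 46.6 ± 1.48% to 41.0 ± 0.06% in PC3 and from 40.8 ± 1.17% to 37.4 ± 0.76% in DU145. Treated and vehicle libraries were separate for both genes in both lines, each with the smallest exact permutation p that 3 against 3 allows, 0.1. These shares are ratios within a library, and their levels depend on the transcript length chosen for each gene. As shares of plain counts, ATP5G2 was the largest of the 3 genes in every group. It was then at 45.5% with vehicle and 54.6% with pentamidine in PC3, and at 46.5% and 51.6% in DU145. Summed over the 3 genes, subunit c was at 488 ± 43.2 CPM and then 447 ± 30.6 in PC3 and at 472 ± 16.7 and then 472 ± 13.7 in DU145, so the sum overlapped where the shares did not.

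Among the other members of complex V, ATP5H, the d subunit of the peripheral stalk, rose in DU145 (0.20 ± 0.06, edgeR adjusted p = 0.012) and ATP5F1, its b subunit, fell (-0.11 ± 0.04, edgeR adjusted p = 0.0086). The remaining 8, which are ATP5C1, ATP5E, ATP5I, ATP5J, ATP5J2, ATP5L, ATP5O and ATP5S, passed in neither line. Several of these are measured poorly. ATP5I had only 12 to 29 counts per library, and ATP5O, ATP5I and ATP5J2 share 70.3, 49.9 and 46.2% of their exon bases with other genes. Whether reads were counted by strand is not given in the sources used here.

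Taken by complex, the summed CPM of complex II was 530, 541 and 560 in PC3 with vehicle and 471, 475 and 473 with pentamidine, and 1100, 1080 and 1040 and then 880, 882 and 856 in DU145. The log2 difference was -0.20 in PC3 and -0.30 in DU145, without overlap. Without SDHA the sum of the other 3 genes differed by -0.08, without overlap, and by -0.02, with overlap. The sums of complexes III and V differed by -0.06 and -0.05 in PC3 and by -0.0024 and -0.0080 in DU145, with overlapping groups. Without replicate 1 of PC3 with vehicle the difference of complex V in PC3 was -0.11, and the other vehicle sums, 2890 and 3060 CPM, lay above the treated sums of 2740, 2860 and 2680. The sum of complex IV was higher by 0.17 in PC3 and 0.09 in DU145, also with overlapping groups, and by 0.08 in PC3 without replicate 1 of the vehicle libraries. No test was made on these sums. Their mitochondria-encoded partners had a summed level of 23400 ± 636 CPM in PC3 with vehicle and 1420 ± 43.7 with pentamidine, and of 27000 ± 637 and then 1120 ± 34.8 in DU145. All 6 fell in both lines, with log2 fold changes from -2.57 (MT-CYB) to -5.24 (MT-CO2) in PC3 and from -3.38 to -5.96 for the same genes in DU145. No nuclear member approached these changes.

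**Figure D5:**
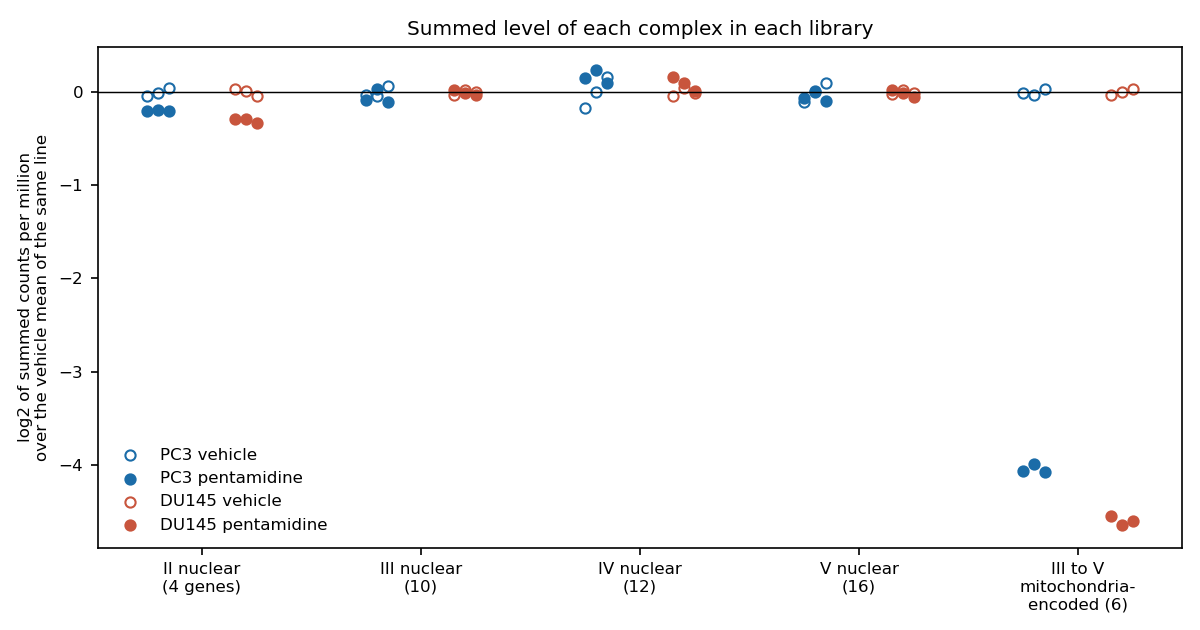
Summed CPM of the nuclear members of each complex and of the 6 mitochondria-encoded subunits of complexes III to V in each library, as log2 over the vehicle mean of the same line. Mean nuclear sums with pentamidine lie between -0.30 and 0.17, and the mitochondria-encoded sum lies at -4.05 in PC3 and -4.60 in DU145.

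The effect of pentamidine differed between the lines for 4 of 42 members (9.52%, against 20.4% of 15226 genes), with SDHD, CYC1 and ATP5D lower and COX7A2L higher in PC3 than in DU145 (10.3% of all genes called lower, 10.2% higher). No member passed the study's rule for this difference, as 2.62% of all genes did. Of these, COX7A2L and SDHD passed under all 20 alternatives. Scaling by library totals alone gave 1 higher and 8 lower, with 1128 higher and 2265 lower among all genes in place of 1546 and 1566. Leaving out replicate 1 of PC3 with vehicle gave 1 higher and 10 lower, with 1688 higher and 1580 lower among all 15626 genes tested.

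Finally, 38 genes for assembly factors of these complexes and the carrier CYCS passed the count filter. In PC3, 12 were called (31.6%, against 43.4% of all genes), 4 higher and 8 lower. COX19, a copper-related factor of complex IV, rose most, from 11.1, 13.7 and 13.6 CPM to 25.8, 25.2 and 23.8 (0.96 ± 0.10, edgeR adjusted p = 9.0e-07), and COA3, which acts on nascent MT-CO1, fell most (-0.50 ± 0.09, edgeR adjusted p = 1.9e-04). In DU145, 8 were called (21.1%, against 34.0%), 4 higher and 4 lower, with SURF1, a factor for complex IV, highest (0.39 ± 0.10, edgeR adjusted p = 0.0017) and TMEM70, a factor for complex V, lowest (-0.29 ± 0.07, edgeR adjusted p = 4.9e-04). The effect on COX19 was larger in PC3 than in DU145 by 0.76 ± 0.14 (edgeR adjusted p = 1.6e-04). The median over the list was -0.02 in PC3 and 0.04 in DU145. Between the lines with vehicle 22 of 37 differed (65.3% of all genes did). COX16 (-1.09) and HIGD1A (-1.0012, barely past the cutoff), both lower in PC3, passed the study's rule.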

How the data were processed

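Poly(A)-selected RNA of 12 libraries was sequenced as paired reads of 150 bases. The deposited counts are whole reads per gene made by the authors. The submitters' processing notes name HISAT2 2.1.0, DESeq 1.18.1 and GRCh38, and the counting program and its strand setting are not given in the sources used here. A deposited table of normalised values was not used, nor were the authors' 2 comparison tables, which hold their fold changes and p-values.

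Of 33639 lines, 33595 carried an Ensembl ID, and 32077 genes were analysed. Members, lists and tests were chosen with earlier results of these data known. Counts were fitted with edgeR 4.0.16 in R 4.3.3 (TMM, filterByExpr with a minimum count of 10, quasi-likelihood test, Benjamini-Hochberg over all genes tested) on the 6 libraries of each comparison, and on all 12 for the difference of the effects. A call is an adjusted p below 0.05. Alternatives were DESeq2 1.42.0, other scalings and filters, pseudogene counts added, a replicate block and leaving out each library. Shares within isoform families were taken per kilobase of 1 main transcript per gene (GENCODE 29) and tested by exact permutation, two-sided. The scripts were tested on simulated data. Genes named by rule were members past the study's rule in any comparison, the called member with the largest rise and fall in each complex and line, all isoform sets with the NDUFA4 paralogs, and the SDH genes. Any other gene given with values, COX5B, ATP5A1 and CYC1 among them, was named after its values were seen. Promoters came from RefSeq (GRCh38.p14). Total counts of 13514195 to 15131436 per library set the precision. At that depth a floor of 3 counts is 0.214 CPM, which covers counting error only. Some marker genes are not reported here.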

Additional observations from a re-analysis of the deposited data

Results flagged for a closer look

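The effect of pentamidine differed between PC3 and DU145 in the fit of all 12 libraries for 4 members and 1 paralog, here as the log2 effect in PC3 minus that in DU145. It was 0.54 for COX7A2L and -0.47 for SDHD, which passed in every alternative run. It was -0.48 for ATP5D, where replicate 1 of PC3 with vehicle lay above the other PC3 libraries and where the difference was -0.29 without it. The ATP5D difference did not pass under DESeq2 or without replicate 1 of DU145 with pentamidine. It was -0.19 for CYC1, which passed in only 5 of 20 alternatives and was -0.14 without replicate 1 of PC3 with vehicle (edgeR adjusted p = 0.1). It was 0.79 for C15orf48, which passed in only 8 of 20 and was 0.61 without that library (edgeR adjusted p = 0.13).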

How the results depend on the processing

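Counts of called members were given by comparison as higher and lower, with 3 and 7 in PC3, 8 and 5 in DU145, 1 and 3 for the difference of effects and 8 and 13 between vehicle-treated lines. One fit of all 12 libraries gave 5 higher in PC3 and 2 higher and 3 lower in DU145. Among all 15226 genes it gave 3288 higher in PC3, and 1899 higher and 1919 lower in DU145 in place of 2459 and 2401. DESeq2 gave 4 higher and 3 lower in DU145 and 1 lower for the difference. Among all genes it gave 1750 higher and 1952 lower in DU145 and 1284 lower for the difference. Scaling by library totals gave 14 higher and 2 lower in DU145, 8 lower for the difference and 13 higher between lines, with 5336 higher and 4248 lower among all genes in place of 4541 and 4864. Without a low-count filter there were 5 higher in PC3 and 2 higher for the difference, with 3003 and 1556 higher among all genes. The study's rule left 0 in every comparison except 1 lower between lines. Leaving out single libraries gave 1 to 10 higher and 5 to 15 lower in PC3, 4 to 12 and 3 to 5 in DU145, 1 to 3 and 1 to 10 for the difference, and 6 to 18 and 10 to 15 between lines. Those fits called 4866 to 6180 of all genes in PC3, 4051 to 4421 in DU145, 2644 to 3268 for the difference and 8777 to 9671 between lines. The cause was not tested. For complex II the median over members was -0.26 in PC3 and -0.0237 in DU145 in place of the sum, and under library totals the sum in DU145 was -0.24. Under library totals the sums of complexes III and V in DU145 were 0.0521 and 0.0466. As shares of counts, differences in percentage points were -2.09 (ATP5G1), 9.07 (ATP5G2), -6.98 (ATP5G3), 4.31 (NDUFA4L2) and -1.58 (C15orf48) in PC3 and 5.10 (ATP5G2), 12 (NDUFA4), 1.08 (NDUFA4L2) and -13.0 (C15orf48) in DU145. Replicate numbers did not pair the samples, with correlations of deviations between -0.156 and 0.0515 for samples of the same number. With the replicate number as a block, 9 members were called in PC3, 13 in DU145, 3 for the difference and 22 between lines. Among all genes 5599, 4794, 2803 and 9430 were called. Among named genes, no value that had been called changed direction under an alternative. Values that had not been called did, and in PC3 COX8A ranged from -0.27 to 0.27, COX6A1 from -0.16 to 0.45, COX7A2 from -0.07 to 0.17, NDUFA4 from -0.10 to 0.16 and UQCRHL from -0.14 to 0.54.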
